A study of Mus musculus with 10 samples.

Results

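The 9 genes described here are *Rbp4*, *Lrat*, *Rdh16*, *Dhrs9*, *Adh1*, *Aldh1a1*, *Aldh1a7*, *Cyp26a1* and *Rarb*. They concern the transport and storage of vitamin A and the making, clearance and sensing of retinoic acid, with *Aldh1a7* a close relative of *Aldh1a1*. They were chosen by name for their place in retinoid metabolism, and all 9 were among the 24052 gene symbols counted. RNA was sequenced from 5 livers of wild-type mice and 5 livers of mice with a liver-specific knockout of *Ndrg3* (Ndrg3 LKO), all C57BL/6 mice fed ad libitum. The mice were 8 to 10 weeks old by the methods for these livers, while a figure legend of the study gives an older range. In the knockout, exon 4 of a floxed *Ndrg3* allele, backcrossed to C57BL/6N, is removed by Cre under the albumin promoter. The study describes the gene as disrupted in hepatocytes, and its state in the other cells of the liver is not given in the sources used here. The controls were wild-type littermates, and which livers came from one litter is not given in the sources used here. No treatment other than the genotype separated the groups.

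Vitamin A reaches the liver as retinyl esters, is stored as esters in hepatic stellate cells, and leaves hepatocytes as retinol bound to its plasma carrier. Retinol is oxidized reversibly to retinal, and retinal irreversibly to retinoic acid, which binds nuclear receptors of the RAR family. Genes that retinoic acid switches on through these receptors include those for RARβ itself and for the CYP26 enzymes that break retinoic acid down, so that the pathway limits its own signal.

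Of the 8 genes whose counts allowed a test, 3 were higher in Ndrg3 LKO livers (*Rarb*, *Lrat* and *Adh1*), *Aldh1a7* was lower, and 4 did not pass the threshold of an adjusted p of 0.05 (*Rbp4*, *Rdh16*, *Aldh1a1* and *Cyp26a1*). The calls are from edgeR (quasi-likelihood F-test, Benjamini-Hochberg adjusted p over the 11208 genes tested). By the same test 48.6% of all genes passed, 25.6% as higher and 23.0% as lower, so 4 calls among 8 genes is close to the share over all genes. Without Ndrg3 LKO replicate 5, a liver that stood apart, the calls were again 3 higher and 1 lower, where 55.6% of all genes passed, 28.4% as higher and 27.2% as lower. With library sizes alone in place of TMM scaling, *Rbp4* joined the higher genes, giving 4 higher and 1 lower, where 60.9% of all genes passed, 51.9% as higher and 9.01% as lower. The groups did not overlap for the same 3 higher genes, beside 15.6% of all genes tested without overlap in that direction, 15.9% in the other and 31.5% in all. Without replicate 5 the lower gene separated as well, beside 21.6%, 22.6% and 44.3% of all genes. The median log2 fold change of the 8 genes was 0.02, beside 0.03 over all genes tested. Their differences are described below gene by gene.

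The receptor gene *Rarb* and the clearance gene *Cyp26a1* shared one feature of their promoters. DNA motifs to which RAR binds with its partner RXR include 2 half-sites in the same orientation separated by 5 bases. Half-sites spelled AGGTCA, spelled AGTTCA, spelled GGGTCA or spelled GGTTCA were searched on both strands within 250 bases before the annotated start of every RefSeq transcript promoter. Such a pair occurred in 29 of 32851 promoter windows (0.0883%) and in the windows of *Rarb* and *Cyp26a1* alone among the 11 windows of the 9 genes, all of which matched RefSeq by symbol. The same half-sites separated by 2 bases occurred in 57 windows (0.174%) and in none of the 11. The 160 bases before each start are printed from RefSeq, build GRCm38.p6, because 1 of these genes passed the test in the livers and the other did not. The stretch for *Rarb* is chr14:16575477-16575636 on the minus strand and that for *Cyp26a1* is chr19:37697648-37697807 on the plus strand. Capitals mark the repeat, which lies 53 to 37 bases before the start of *Rarb* and 32 to 16 bases before that of *Cyp26a1*.
Rarb: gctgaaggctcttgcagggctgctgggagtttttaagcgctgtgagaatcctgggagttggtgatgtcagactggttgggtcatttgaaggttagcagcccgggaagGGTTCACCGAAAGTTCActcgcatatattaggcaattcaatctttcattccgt
Cyp26a1: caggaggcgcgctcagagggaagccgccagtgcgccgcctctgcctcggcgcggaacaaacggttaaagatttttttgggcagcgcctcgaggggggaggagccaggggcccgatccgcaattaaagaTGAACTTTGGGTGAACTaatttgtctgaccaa
In *Rarb* the repeat reads along the gene's strand, and in *Cyp26a1* it reads on the other strand. A match describes these letters and not a bound site. The repeat was searched as a known RAR motif and both genes are known targets of retinoic acid, so its presence in them is no test. Each start printed is that of a RefSeq transcript, while the counts are for the whole gene.

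Before the genes, 1 library needs naming. On the first principal component, which held 68.7% of the variance, the wild-type livers lay between -49.92 and -43.05 and 4 of the Ndrg3 LKO livers lay between 51.06 and 56.62. The fifth of them, replicate 5, lay at 14.12. Depth ran from 20872262 to 30450057 counts per liver. The 20 most abundant genes took 26.15% to 28.02% of the counts in wild-type livers, 16.27% to 17.29% in Ndrg3 LKO replicates 1 to 4 and 26.58% in replicate 5. *Ndrg3* itself was lower in all 5 Ndrg3 LKO livers, at 7.07 to 9.16 CPM (counts scaled to each library's TMM-normalized total), than in wild-type livers, at 15.9 to 21.9. Its log2 fold change was -1.20 (SE 0.13, edgeR adjusted p = 3.87e-05), in replicate 5 as in the others. Values of the 9 genes are therefore given with and without replicate 5. Scaling by library sizes alone, without TMM, moved the median difference over all genes from 0.03 to 0.56 (log2), and changes are given on the TMM scale unless stated. The same scaling moved the share of calls that were higher from 52.6% to 85.2%.

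**Figure D1:**
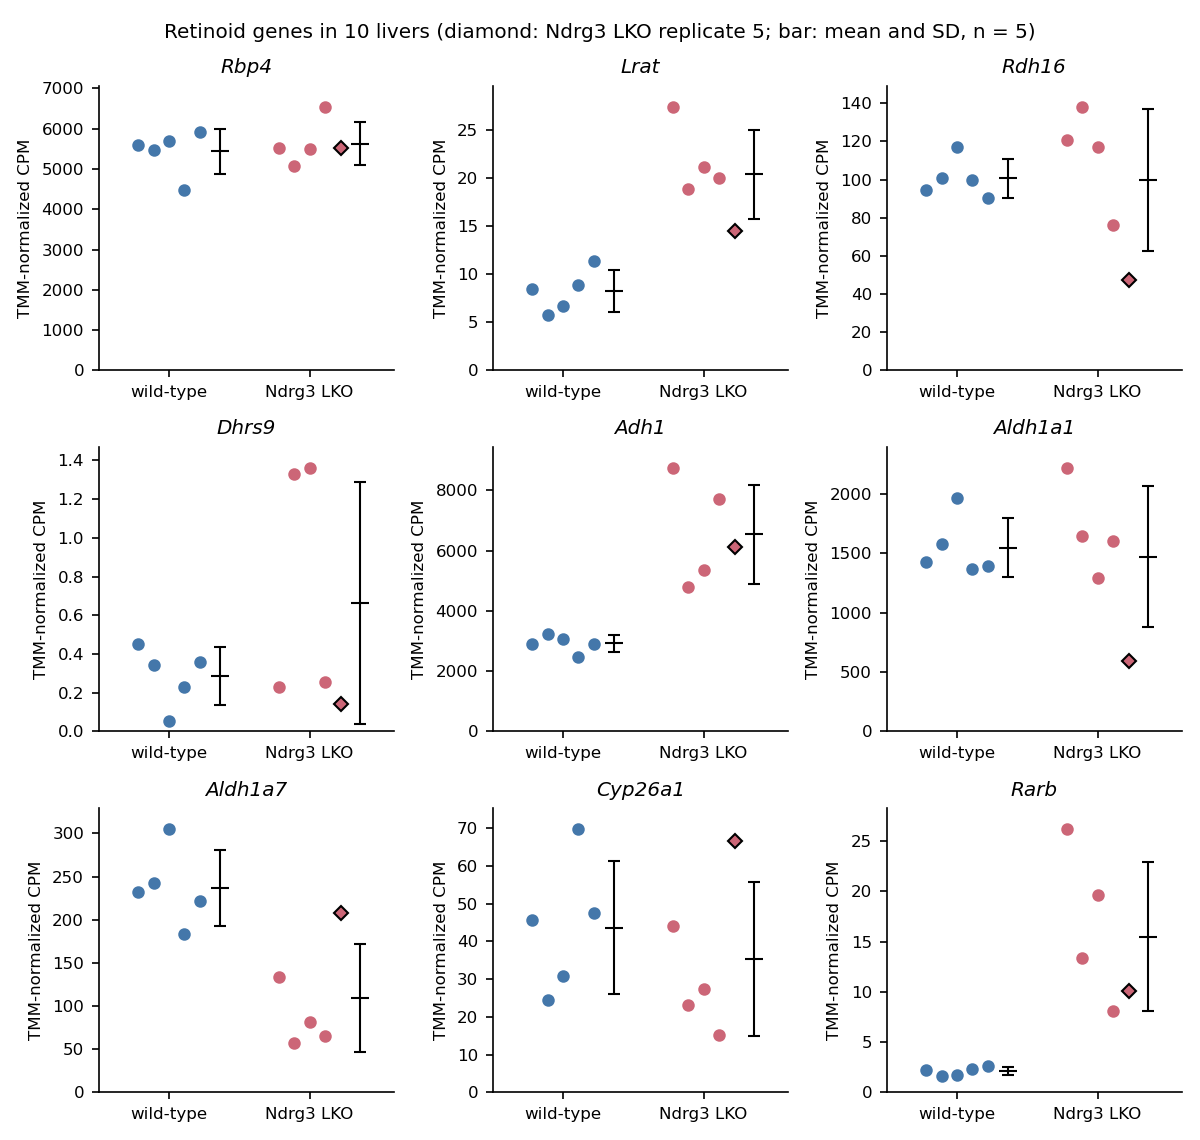
TMM-normalized CPM of the 9 genes in each liver on linear axes from 0. Blue points are wild-type livers, red points Ndrg3 LKO livers, the diamond is Ndrg3 LKO replicate 5, and the bar is the mean with its SD (n = 5). The groups are apart for *Lrat*, *Adh1* and *Rarb*, and for *Aldh1a7* replicate 5, at 208, lies among the wild-type livers.

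*Rarb* encodes RARβ, a retinoic acid receptor whose own gene is a textbook target of retinoic acid. The gene lies on the minus strand of chromosome 14, from 17263356 to 17651381 of mm9, the build the authors mapped to. Its counts in wild-type replicates 1 to 5 were 39, 34, 32, 50 and 44, and in Ndrg3 LKO replicates 1 to 5 were 913, 554, 760, 285 and 215. As normalized CPM these were 2.19, 1.66, 1.78, 2.3 and 2.62 in wild-type livers and 26.2, 13.4, 19.6, 8.12 and 10.1 in Ndrg3 LKO livers. Every Ndrg3 LKO liver was above every wild-type liver, replicate 5 included, and the Ndrg3 LKO livers spread widely among themselves. The mean rose from 2.11 ± 0.39 to 15.5 ± 7.41 CPM (SD, n = 5 each). The log2 fold change was 2.88 (SE 0.32, edgeR adjusted p = 4.6e-05), and 2.98 (SE 0.31, adjusted p = 1.15e-05) without replicate 5. It ranked 115 of 11208 genes by size of increase. The exact 2-sided permutation test of the means on the log2(CPM + 1) scale gave p = 0.00794, the smallest that 5 livers against 5 allow.

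Per length, *Rarb* was under *Rara* in every wild-type liver and above it in most Ndrg3 LKO livers. *Rara*, the receptor gene with the highest level of the 3 in wild-type livers, gave 3.5 CPM per kb of exon in wild-type and 2.82 in Ndrg3 LKO livers, with a log2 fold change of -0.32 (edgeR adjusted p = 0.156). It was named after its values were seen. *Rarb* went from 0.641 (range 0.504 to 0.795) to 4.71 (range 2.47 to 7.97) CPM per kb. *Rarb* was above *Rara* per kb in 0 of 5 wild-type and 3 of 5 Ndrg3 LKO livers. *Rarg* rose from 0.485 to 0.838 CPM per kb, a log2 fold change of 0.79 (SE 0.27, edgeR adjusted p = 0.0278). That call is not stable, since it was lost on leaving out any one of wild-type replicates 1, 2 and 5 or Ndrg3 LKO replicates 1, 3 and 4, where the adjusted p ran from 0.0549 to 0.0747, and on quantile normalization. *Rxra*, the gene for RXRα, the partner of RAR that is most abundant in liver, was at 388 and 420 CPM with a log2 fold change of 0.11 (edgeR adjusted p = 0.596).

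*Cyp26a1*, for the cytochrome P450 that hydroxylates retinoic acid and so clears it, is itself a well known target of retinoic acid. It lies on the plus strand of chromosome 19, from 37772298 to 37776018 of mm9. Its wild-type values were 45.7, 24.5, 30.9, 69.7 and 47.4 CPM, and its Ndrg3 LKO values 44.1, 23.1, 27.5, 15.1 and 66.5 CPM. The groups overlapped widely, and replicate 5 was the highest of the Ndrg3 LKO livers. Its log2 fold change was -0.31 (SE 0.38, edgeR adjusted p = 0.519), and -0.68 (SE 0.33, adjusted p = 0.0993) without replicate 5. Of the pair whose promoters hold the repeat, *Rarb* rose and *Cyp26a1* did not pass the test. With library sizes alone the *Cyp26a1* difference was 0.11 (adjusted p = 0.794). *Rarb* counts per *Cyp26a1* count were 0.0329 to 0.0679 in wild-type livers and 0.595, 0.58, 0.71, 0.539 and 0.152 in Ndrg3 LKO livers, a ratio described after its values were seen.

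*Cyp26b1* encodes the related enzyme. Its values were 8.7, 6.54, 6.24, 13.9 and 10.3 CPM in wild-type livers and 30.3, 30.3, 24.7, 19.7 and 5.84 in Ndrg3 LKO livers. Replicates 1 to 4 were above every wild-type liver, and replicate 5 was below every wild-type liver. The log2 fold change was 1.28 (SE 0.38, edgeR adjusted p = 0.0149) and 1.51 without replicate 5 (adjusted p = 0.000216), while the exact 2-sided permutation test over 10 livers gave p = 0.0635. Among the 28 genes whose promoters hold the repeat, 10 were in the files and 3 were tested. *Rarb* was the only call over 10 livers, where 48.6% of all genes passed. Without replicate 5 there were 2 calls, both higher, where 55.6% of all genes passed.

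*Lrat* encodes lecithin:retinol acyltransferase, which turns retinol into retinyl esters for storage, and it is a gene of hepatic stellate cells. It lies on the minus strand of chromosome 3, from 82696501 to 82707895 of mm9. Counts in wild-type livers were 150, 119, 120, 194 and 192, and in Ndrg3 LKO livers 953, 780, 824, 703 and 308. The normalized values were 8.42, 5.81, 6.68, 8.91 and 11.4 CPM in wild-type livers and 27.4, 18.9, 21.2, 20 and 14.5 CPM in Ndrg3 LKO livers. The groups did not overlap, and replicate 5 was the lowest of the Ndrg3 LKO livers. The mean rose from 8.25 ± 2.18 to 20.4 ± 4.65 CPM (SD, n = 5 each), with a log2 fold change of 1.31 (SE 0.21, edgeR adjusted p = 0.00047) and 1.40 (SE 0.20, adjusted p = 0.000108) without replicate 5. The exact 2-sided permutation test again gave its smallest p, 0.00794.

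Of 11 tested markers of quiescent stellate cells, 7 passed as higher and none as lower by edgeR, beside the 25.6% of all genes that were higher, and their median log2 fold change was 0.62. *Reln*, *Des*, *Ngfr* and *Hand2* did not pass, named after their values were seen, and *Des* had a log2 fold change of -0.62 (adjusted p = 0.408). The summed level of all 12 listed markers of quiescent stellate cells was 215 to 310 CPM in wild-type livers, 379 to 507 in Ndrg3 LKO replicates 1 to 4 and 366 in replicate 5. Of 7 tested markers of activated stellate cells and fibroblasts, 5 passed as higher and none as lower, beside 25.6% and 23.0% of all genes. The summed level of that list was 23.5 to 37.9 CPM in wild-type livers, 52.7 to 91.2 in Ndrg3 LKO replicates 1 to 4 and 117 in replicate 5. The 7 quiescent markers that passed had log2 fold changes from 0.51 (*Ecm1*) to 1.77 (*Rgs5*), both named after their values were seen. *Reln*, a gene of stellate cells used here as a reference for *Lrat*, had a log2 fold change of 0.39 (edgeR adjusted p = 0.0585). *Lrat* counts per *Reln* count were 0.368, 0.219, 0.218, 0.438 and 0.373 in wild-type livers and 0.713, 0.725, 0.673, 0.493 and 0.412 in Ndrg3 LKO livers, so 1 of the Ndrg3 LKO livers lay inside the wild-type range. *Lrat* counts per *Des* count were 0.532 to 5.39 in wild-type livers and 5.71, 6.09, 5.84, 4.02 and 3.02 in Ndrg3 LKO livers. By that ratio Ndrg3 LKO replicates 4 and 5 lay inside the wild-type range. In bulk tissue, fewer or more cells of a type and less or more RNA per cell cannot be told apart, and the part of the stellate cell markers in the *Lrat* result was not tested.

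*Rbp4* encodes the plasma carrier of retinol that hepatocytes release. The gene is on the minus strand of chromosome 19, from 38191110 to 38199811 of mm9. It took 0.411% to 0.477% of the counts in wild-type livers, 0.661% to 0.826% in Ndrg3 LKO replicates 1 to 4 and 0.498% in replicate 5. On the TMM scale its values were 5590, 5479, 5693, 4484 and 5920 CPM in wild-type livers and 5526, 5076, 5492, 6534 and 5509 CPM in Ndrg3 LKO livers. The share of counts separated the groups while the TMM values overlapped. The log2 fold change was 0.05 (SE 0.17, edgeR adjusted p = 0.816), and it was 0.58 (adjusted p = 0.0068) with library sizes alone, which is 0.03 above the median gene on that scale. Of 11 tested hepatocyte markers, 8 passed as lower and none as higher by edgeR, beside the 23.0% of all genes that were lower. *Rbp4* did not pass, and neither did 3 of the markers, named after their values were seen. These were *Cps1* (log2 0.09, edgeR adjusted p = 0.77), *Ahsg* (-0.35, adjusted p = 0.271) and *Serpina1a* (-1.15, adjusted p = 0.137). Without replicate 5, 10 of the 11 passed as lower, beside 27.2% of all genes. The summed level of that list was 159537 to 199867 CPM in wild-type livers, 42959 to 49066 in Ndrg3 LKO replicates 1 to 4 and 163976 in replicate 5, and its part in any result here was not tested. *Ttr*, the gene for transthyretin, which carries RBP4 in plasma and was on both lists, fell from 9659 to 4700 CPM with a log2 fold change of -1.04 (SE 0.35, edgeR adjusted p = 0.0286). Without replicate 5, where *Ttr* was at 9795 CPM, it fell by 1.51 on the log2 scale (edgeR adjusted p = 0.000173). The call over 10 livers was lost without wild-type replicate 3 or 5 or Ndrg3 LKO replicate 2, 3 or 4, where the adjusted p ran from 0.051 to 0.069, and on quantile normalization.

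*Adh1* encodes an alcohol dehydrogenase abundant in hepatocytes that oxidizes retinol as well as ethanol. It lies on the plus strand of chromosome 3, from 137923955 to 137953662 of mm9, where Gm16559 overlaps its exons on the opposite strand. Whether the counting used strand is not given in the sources used here. The normalized values were 2915, 3250, 3058, 2477 and 2915 CPM in wild-type livers and 8743, 4788, 5372, 7710 and 6107 CPM in Ndrg3 LKO livers. Every Ndrg3 LKO liver was above every wild-type liver, with replicate 5 in the middle of its group. The mean rose from 2923 ± 284 to 6544 ± 1647 CPM (SD, n = 5 each), with a log2 fold change of 1.16 (SE 0.21, edgeR adjusted p = 0.000869) and 1.18 (SE 0.20, adjusted p = 0.000381) without replicate 5. *Adh1* counts exceeded *Rbp4* counts in 0 of 5 wild-type and 3 of 5 Ndrg3 LKO livers.

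*Rdh16*, for a microsomal retinol dehydrogenase, is on the plus strand of chromosome 10, from 127238208 to 127283621 of mm9, its exons overlap those of Rdh18-ps, and 2.07% of its 100-base windows also occur in *Rdh9*. Its values were 94.7, 101, 117, 100 and 90.5 CPM in wild-type livers and 121, 138, 117, 76 and 47.4 CPM in Ndrg3 LKO livers. The wild-type livers lay close together, while the Ndrg3 LKO livers fell on both sides of them and replicate 5 was the lowest of all 10. The log2 fold change was -0.01 (SE 0.24, edgeR adjusted p = 0.97), and 0.15 (adjusted p = 0.45) without replicate 5. *Dhrs9*, for a short-chain dehydrogenase that acts on retinol, lies on the plus strand of chromosome 2, from 69218502 to 69242590 of mm9. Its counts were 8, 7, 1, 5 and 6 in wild-type livers and 8, 55, 53, 9 and 3 in Ndrg3 LKO livers. Only Ndrg3 LKO replicates 2 and 3 reached 1 CPM, so it was the 1 gene of the 9 under the filter of 1 CPM in 5 livers. Without a filter, where 35.0% of all genes passed, its log2 fold change was 1.21 (edgeR adjusted p = 0.18), and 1.45 (adjusted p = 0.0759) without replicate 5.

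*Aldh1a1* encodes the retinal dehydrogenase that makes retinoic acid, and *Aldh1a7* a close relative of it on the same chromosome. On chromosome 19 of mm9 they run from 20676451 to 20717952 on the plus strand and from 20767443 to 20802052 on the minus strand, and 0.0512% and 0.0508% of their 100-base windows are shared. *Aldh1a1* was at 1431, 1576, 1967, 1368 and 1398 CPM in wild-type livers and at 2220, 1649, 1295, 1609 and 592 CPM in Ndrg3 LKO livers. The groups overlapped, and replicate 5 was the lowest of all 10. Its log2 fold change was -0.07 (SE 0.29, edgeR adjusted p = 0.853), and 0.12 (adjusted p = 0.605) without replicate 5. *Aldh1a7* was at 232, 243, 305, 183 and 222 CPM in wild-type livers and at 134, 57.1, 81.5, 65.2 and 208 CPM in Ndrg3 LKO livers. Replicates 1 to 4 were below every wild-type liver, and replicate 5 lay inside the wild-type range. The mean fell from 237 ± 44.3 to 109 ± 62.8 CPM (SD, n = 5 each). Its log2 fold change was -1.12 (SE 0.32, edgeR adjusted p = 0.0138) and -1.50 (SE 0.25, adjusted p = 0.000341) without replicate 5, and the exact 2-sided permutation test gave p = 0.0159 over 10 livers.

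The ratio of these neighbouring genes was steady in wild-type livers and not in Ndrg3 LKO livers. *Aldh1a1* counts per *Aldh1a7* count were 6.17, 6.48, 6.45, 7.49 and 6.3 in wild-type livers and 16.6, 28.9, 15.9, 24.7 and 2.85 in Ndrg3 LKO livers. The wild-type ratios were close together, those of Ndrg3 LKO replicates 1 to 4 were higher and that of replicate 5 was lower than any of them. The ratio was chosen after its values were seen.

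**Figure D2:**
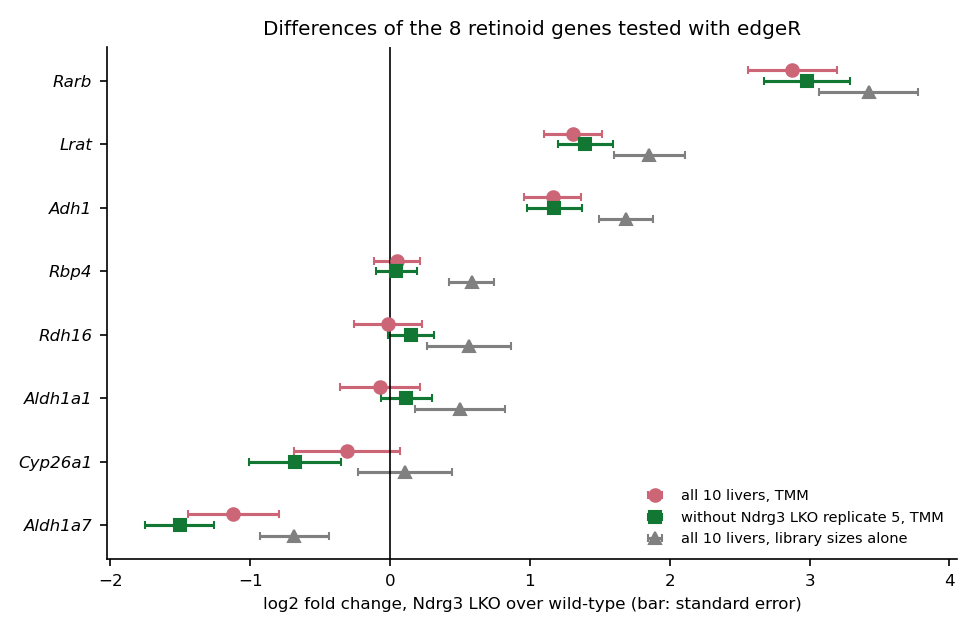
Log2 fold changes (Ndrg3 LKO over wild-type, x axis) of the 8 genes tested, with standard errors. Circles are all 10 livers with TMM, squares leave out Ndrg3 LKO replicate 5 and triangles use library sizes alone. *Rarb*, *Lrat* and *Adh1* are above 0 and *Aldh1a7* below 0 in all 3 fits, and the triangles lie to the right of the circles.

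**Figure D3:**
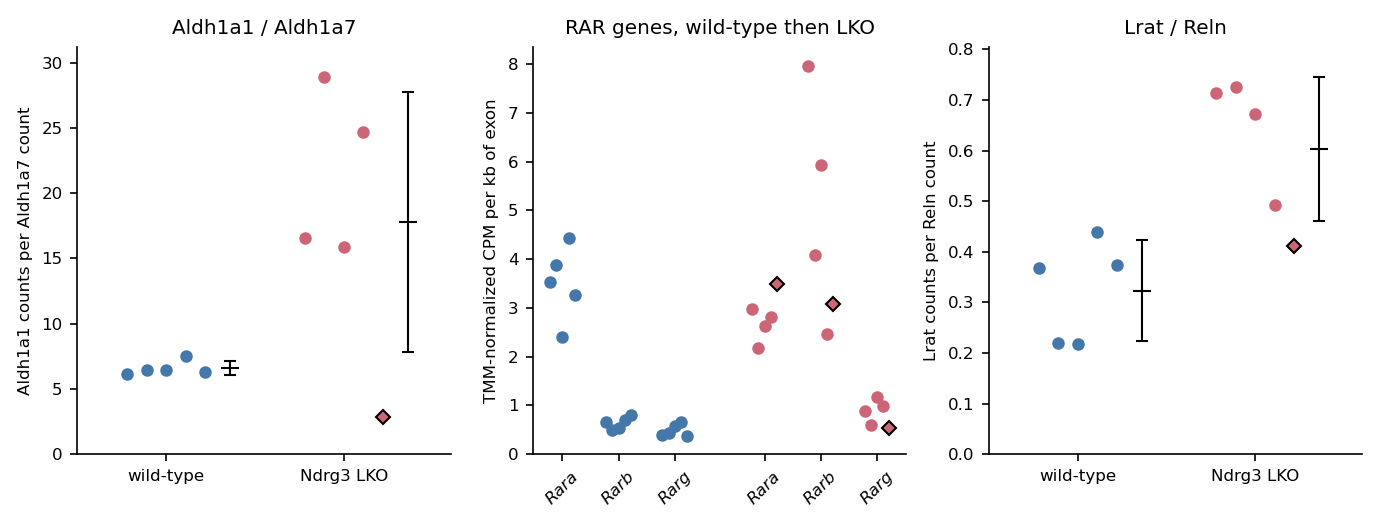
Counts of *Aldh1a1* per *Aldh1a7* count, TMM-normalized CPM per kb of exon of *Rara*, *Rarb* and *Rarg*, and counts of *Lrat* per *Reln* count, each point a liver (blue wild-type, red Ndrg3 LKO, diamond Ndrg3 LKO replicate 5, bar mean and SD, n = 5). *Rarb* is above *Rara* in 3 of 5 Ndrg3 LKO livers and in 0 of 5 wild-type livers.

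Per length, the 9 genes kept much of their order across the groups. Mean levels in wild-type livers were 4189 CPM per kb for *Rbp4*, 1309 for *Adh1*, 754 for *Aldh1a1*, 115 for *Aldh1a7*, 24.6 for *Cyp26a1*, 16.2 for *Rdh16*, 1.54 for *Lrat*, 0.641 for *Rarb* and 0.067 for *Dhrs9*. Neighbours in this order had ranges that did not overlap, except *Cyp26a1* and *Rdh16*. In Ndrg3 LKO livers the means were 4339, 2931, 718, 52.8, 19.9, 16.1, 3.81, 4.71 and 0.155 CPM per kb for the same genes. There *Rarb* passed *Lrat*, and their ranges, 2.47 to 7.97 and 2.71 to 5.12, overlapped. *Aldh1a7* and *Cyp26a1*, *Cyp26a1* and *Rdh16*, and *Rdh16* and *Rarb* overlapped as well. *Adh1* came up to *Rbp4*, with the highest *Adh1* liver at 3915 and the lowest *Rbp4* liver at 3914 CPM per kb.

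Genes whose log2 profiles over the 10 livers were closest to each of the 9 were found by the root mean square difference of the centred log2(CPM + 1) values. The 1 added shrinks differences of genes at low levels, so a close profile need not mean a like fold change. *Ier3*, at 0.567 CPM in wild-type and 3.08 in Ndrg3 LKO livers, had a log2 fold change of 2.45, beside 1.31 for *Lrat*. The closest to *Rarb* were *Maged2* (0.197) and *Afp* (0.27), and the closest to *Lrat* were *Ier3* (0.189) and *Esrra* (0.193). *Adh1* was closest to *Trappc6a* (0.0703) and *Timm50* (0.104). *Aldh1a7* was closest to *Idh1* (0.142) and *Ttr* (0.181). The closest to *Rbp4* was *Creb3* (0.0568), to *Rdh16* *Usp6nl* (0.194), to *Dhrs9* *Nhlrc3* (0.129), to *Aldh1a1* *Ces2e* (0.164) and to *Cyp26a1* *Gstp2* (0.277).

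A list of 51 other retinoid genes gives the setting. All 51 were in the files, 5 had no counts in any liver, and 33 were tested, of which 6 were higher, 9 lower and 18 did not pass by edgeR, beside the 25.6% higher and 23.0% lower of all genes. Their median log2 fold change was -0.17. Without replicate 5, 34 were tested, with 9 higher and 13 lower, where 55.6% of all genes passed. *Cyp26c1*, counted there as higher, entered that test only through the Ndrg3 LKO livers. With library sizes alone 14 were higher and 6 lower, beside 51.9% and 9.01% of all genes. All 15 genes called over 10 livers kept their direction and call without replicate 5.

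In uptake and transport, 3 of 4 tested were lower, beside the 23.0% of all genes that were lower. *Scarb1*, for a lipoprotein receptor that also takes up carotenoids, fell from 161 to 62.9 CPM, a log2 fold change of -1.36 (SE 0.14, edgeR adjusted p = 3.2e-05). *1300002K09Rik*, which RefSeq names Stra6l, a receptor for the retinol carrier, fell from 64.7 to 41.3 CPM, -0.65 on the log2 scale (adjusted p = 0.00875), but with library sizes alone the adjusted p was 0.405. Among ester and carotenoid genes, 2 of 5 were higher and 1 was lower, beside 25.6% and 23.0% of all genes. *Bcmo1*, for the enzyme that cleaves β-carotene into retinal, rose from 5.41 to 15 CPM (log2 1.47, SE 0.16, edgeR adjusted p = 4.31e-05). *Dgat1*, for an acyltransferase that can also esterify retinol, rose from 29.5 to 44.5 CPM (log2 0.60, SE 0.13, adjusted p = 0.00248). *Lipe*, for hormone-sensitive lipase, which hydrolyses retinyl esters, fell from 14.3 to 7.66 CPM (log2 -0.90, SE 0.22, adjusted p = 0.0055), though not past the threshold with library sizes alone (adjusted p = 0.119). *Pnpla2*, for adipose triglyceride lipase, was at 156 and 184 CPM (log2 0.25, adjusted p = 0.271).

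Retinol and retinal interconversion had 1 higher and 5 lower of 13 tested, the 9 genes left out, beside 25.6% higher and 23.0% lower of all genes. Without replicate 5 these were 2 higher and 8 lower, beside 28.4% and 27.2% of all genes. With library sizes alone they were 4 higher and 4 lower, beside 51.9% and 9.01%. *Adh4*, an alcohol dehydrogenase active on retinol, fell from 58.5 to 20.5 CPM (log2 -1.51, SE 0.16, edgeR adjusted p = 2.9e-05). *Rdh7*, for a retinol dehydrogenase, fell from 1785 to 637 CPM (log2 -1.49, SE 0.23, adjusted p = 0.00041). *Adh5* fell from 586 to 260 CPM (log2 -1.17, SE 0.18, adjusted p = 0.000397). The other lower genes were *Adh7*, from 29.7 to 11.3 CPM (adjusted p = 4.78e-05), and *Rdh10*, from 24 to 14.2 CPM (adjusted p = 0.0136), named after their values were seen. *Rdh13* was the higher one, at 11.2 and 17.3 CPM (log2 0.63, SE 0.20, adjusted p = 0.0229), and the call was lost without wild-type replicate 2 or Ndrg3 LKO replicate 2 or 3, where the adjusted p ran from 0.0523 to 0.0636. *Dhrs3*, which turns retinal back into retinol and is induced by retinoic acid, was at 110 and 96 CPM (log2 -0.20, adjusted p = 0.328). *Rdh9* was at 120 and 152 CPM (log2 0.34, adjusted p = 0.252) and passed without replicate 5 (0.50, adjusted p = 0.018). *Dhrs4* was at 212 and 222 CPM (log2 0.07, adjusted p = 0.752). *Aldh8a1*, for an aldehyde dehydrogenase active on retinal, was at 288 and 250 CPM (log2 -0.20, adjusted p = 0.435).

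Among other genes induced by retinoic acid, *Tgm2*, for a transglutaminase, was the 1 tested. Its values were 57.1, 93.4, 48.3, 67.3 and 84.9 CPM in wild-type livers and 305, 239, 172, 207 and 117 CPM in Ndrg3 LKO livers. All 5 Ndrg3 LKO livers were above all wild-type livers, and the log2 fold change was 1.57 (SE 0.26, edgeR adjusted p = 0.000576). Its exons overlap those of Rprd1b and RP23-396G1.3 on the opposite strand. *Ncor1*, for a corepressor that binds RAR without ligand, was at 54.9 and 40.1 CPM (log2 -0.45, edgeR adjusted p = 0.0502). DESeq2 placed it past the threshold, and with library sizes alone its sign turned (0.10, adjusted p = 0.736).

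**Figure D4:**
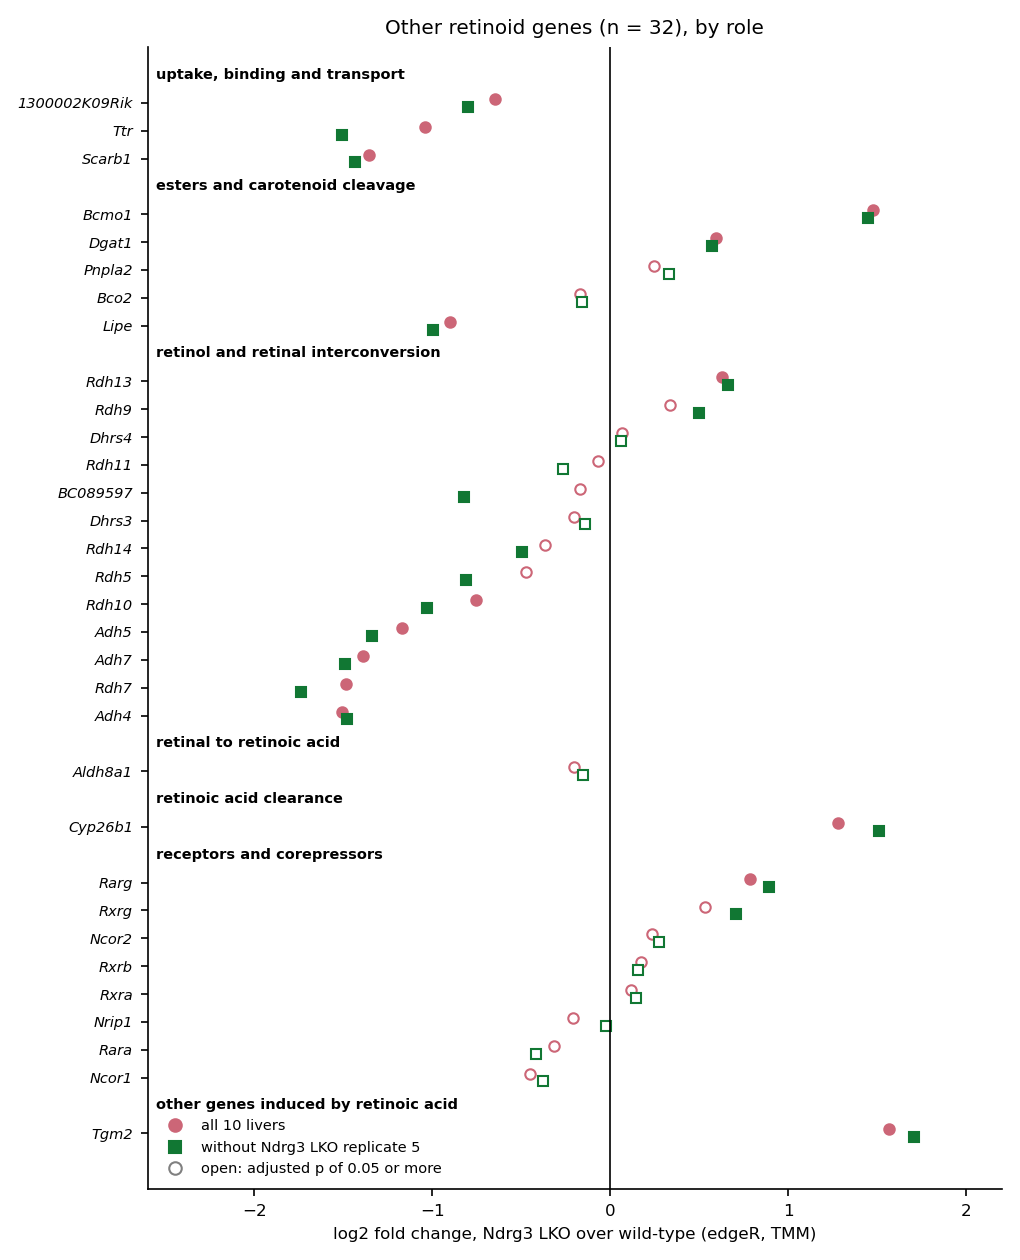
Log2 fold changes (Ndrg3 LKO over wild-type, x axis) of 32 of the 33 other retinoid genes tested, grouped by role, for all 10 livers (red circles) and without Ndrg3 LKO replicate 5 (green squares). Filled symbols passed an adjusted p of 0.05, and 6 circles above 0 and 9 below 0 are filled.

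Most tested markers of endothelial and Kupffer cells were also higher in the Ndrg3 LKO livers. Of the tested markers, 7 of 8 for endothelial cells and 8 of 8 for Kupffer cells passed as higher by edgeR, and none as lower. Over all genes tested 25.6% passed as higher and 23.0% as lower. Summed endothelial markers were 64.1 to 83.5 CPM in wild-type livers, 140 to 180 in Ndrg3 LKO replicates 1 to 4 and 132 in replicate 5. Kupffer markers summed to 81.2 to 206, 184 to 573 and 240 CPM in the same order, overlapping between the groups. Of 7 tested cholangiocyte markers 2 were higher and 1 lower, beside the same shares of all genes. No lymphocyte or neutrophil marker reached the filter, with sums of 1.01 to 2.06, 1.91 to 6.3 and 17.3 CPM. Defining hepatocyte markers were present throughout. *Alb* was at 80485 to 115763 CPM in wild-type livers, 20929 to 26338 in Ndrg3 LKO replicates 1 to 4 and 107850 in replicate 5. Its log2 fold change was -1.24 (edgeR adjusted p = 0.0437), and -2.06 (adjusted p = 3.47e-06) without replicate 5. The part of these markers in the values of *Rarb*, *Lrat*, *Adh1* and *Aldh1a7* was not tested.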

How the data were processed

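Liver RNA from 10 mice was sequenced as stranded mRNA libraries with paired reads. The authors deposited 1 table of raw counts per liver and gene symbol, made by mapping to mm9 with STAR (version 2.7.3a per the labels, another version in the study's methods). The gene annotation and strand setting behind the counts are not given in the sources used here. The submitters' processing notes also name bcl2fastq, Trim Galore 0.6.4 and Cufflinks 2.2.1.

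Groups and replicate numbers came from the sample labels. Counts, 20872262 to 30450057 per liver, were normalized with TMM, and genes reaching 1 CPM in 5 or more livers (4 when 1 liver was left out) were tested with edgeR 4.0.16 (R 4.3.3, glmQLFit and glmQLFTest) without covariates. Fold changes are Ndrg3 LKO over wild-type, and p-values were adjusted by Benjamini-Hochberg over all genes tested. A floor of 3 counts lies at 0.0985 to 0.144 CPM and covers counting error only. Single genes were also tested by an exact 2-sided permutation test of mean log2(CPM + 1). Levels per kb used exon lengths of GENCODE M1 on mm9, which held 20945 of 24052 symbols. Promoters came from RefSeq, GRCm38.p6. Alternatives used DESeq2 1.42.0, limma 3.58.1, other scalings, filters and pseudocounts, a replicate block, and each liver left out. The edgeR step was tested on simulated data with 200 genes changed.

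The chi-square per degree of freedom between livers of one group was 26 to 453.9 over 20 pairs, so no pair was treated as 1 library. Nothing gives separate litters, so p-values measure the spread between these livers. The genes, lists and tests were chosen with earlier results of these data known. Beside the 9 genes, the text names up to 2 with the largest rise and fall among those called in each role, those over 50 CPM in a group, and the closest profiles, with exceptions stated. The values of 1 retinoid gene of the list are not reported here, though it is counted in the totals of the list.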

Additional observations from a re-analysis of the deposited data

Results flagged for a closer look

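In 76 groups of 5 livers (genes and marker sums), the highest or lowest liver was compared with its nearest neighbour relative to the range, a check that chance flags in about 1 group of 20. It marked 4 values.

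Ndrg3 LKO replicate 5 stood apart at 307 CPM for *BC089597* (0.762 of the range), whose mean was 142 CPM in wild-type and 126 in Ndrg3 LKO livers. Its log2 fold change was -0.17 (edgeR adjusted p = 0.744), and -0.82 (adjusted p = 0.0048) without replicate 5. The hepatocyte marker sum of replicate 5, 163976 CPM, stood 0.95 of the range from the other Ndrg3 LKO livers, and its lymphocyte and neutrophil marker sum of 17.3 CPM stood 0.714 of the range away. Wild-type replicate 1 was the high value for *Adh5*, at 694 CPM (0.79 of the range).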

How the results depend on the processing

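Over 19 alternatives the number of the 9 retinoid genes called was 4 or 5, and with each liver left out it was 4 in every case. *Rarb* (log2 1.46 to 3.42), *Lrat* (0.94 to 1.85), *Adh1* (1.04 to 1.99) and *Aldh1a7* (-1.50 to -0.68) kept direction and call under all 19. *Rbp4* gained a call with library sizes alone (0.58) and quantile normalization (0.99), and its sign turned without some livers (-0.023 to 0.084). *Rdh16* turned sign with library sizes (0.57), quantile normalization (0.07) and a mean of 5 CPM (0.044), and ran from -0.16 to 0.15 with livers left out. *Aldh1a1* turned with library sizes (0.50) and quantile normalization (0.54), and ran from -0.26 to 0.12. *Cyp26a1* turned with library sizes (0.11), and ran from -0.68 to -0.09. The cause was not tested. The count of other retinoid genes called was 12 to 22 (15 as reported), and of all genes 4254 to 6831. Livers of the same number did not deviate together (mean correlation -0.216, and 0 of 5 wild-type livers were closest to their own number), so they share only a number. With a replicate block, 4 of the retinoid genes and 4412 genes in all were called, and *Cyp26b1* (1.18, edgeR adjusted p = 0.0584) was not. For *Dhrs9*, leaving out each liver without a filter, chosen after seeing the data, gave 0.79 to 1.45.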

Other observations

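Some retinoid genes did not reach the filter of 1 CPM in 5 livers. *Cyp26c1*, the third gene for enzymes of the CYP26 family, gave 9, 10, 4, 12 and 10 counts in wild-type livers. It gave 68, 65, 75, 40 and 20 in Ndrg3 LKO livers, every one above the wild-type livers. Among genes past the filter 15.6% were apart in that direction. Without a filter, where 35.0% of all genes passed, the log2 fold change of *Cyp26c1* over 10 livers was 1.63 (SE 0.33, edgeR adjusted p = 0.00209). *Pnpla3* was also higher in every Ndrg3 LKO liver than in any wild-type liver (log2 1.97 without a filter, SE 0.59, edgeR adjusted p = 0.0187). *Rdh12* gave 0 counts in each wild-type liver and 1, 3, 2, 1 and 6 in Ndrg3 LKO livers. The genes of this paragraph were named after their values were seen. Without replicate 5, where the filter asks for 1 CPM in 4 livers, *Cyp26c1* entered only through Ndrg3 LKO replicates 1 to 4. Those are the livers in which *Cyp26c1* was high, so no p-value is drawn from that fit. Its log2 fold change was then 1.78 (SE 0.30). *Sdr16c5*, for a retinol dehydrogenase, gave 4, 7, 2, 2 and 10 counts in wild-type livers and 0 in each Ndrg3 LKO liver, where the floor is 3 counts. *Aldh1a2*, for the retinal dehydrogenase of embryonic tissue, gave 1 to 3 counts in wild-type livers and 2, 7, 7, 6 and 2 in Ndrg3 LKO livers. *Crabp2* and *Stra6* had 0 counts in every liver.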
